A study of Drosophila melanogaster with 12 samples.

Results

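The small RNAs described here come from 7 LTR retrotransposons of *Drosophila melanogaster*, namely 297, 17.6, accord, accord2, Burdock, nomad and rover. Their members were chosen by name: every transposon entry of the deposited tables whose name begins with DM297, DM176, ACCORD, BURDOCK, NOMAD or ROVER, on either strand, which are 6 name stems. This gave 24 of 968 entries in the ovary table, made of 12 names on 2 strands, and 21 of 845 in the testis table, made of 11 names. Over both tables there were 24 distinct entries, and 3 of them were listed in ovary only, namely ACCORD2_LTR Plus and both strands of BURDOCK_LTR. Names ending in _I hold the internal part of an element and names ending in _LTR its long terminal repeat, while 17.6 (DM176) and rover (ROVER_DM) have a single entry each.

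The study sequenced small RNAs of dissected gonads in 6 groups of 2 biological replicates. The ovaries came from females labelled XXYohio and XXYcongo, which carry an added Y chromosome of the named origin, and from XX control females. The testes came from males labelled XYYohio and XYYcongo, which carry a further Y chromosome, and from XY control males. All flies were 2 days old and were reared at 23 °C with 14 hours of light. The labels, those of the controls included, write a caret between the first 2 sex chromosomes, which in fly notation can mark attached chromosomes and is not spelled out there. The labels name no other allele, no strain background and no number of flies per library. The columns headed Cs were read as Yohio because the other columns are named outright, so each Yohio value depends on it.

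All 7 elements belong to the gypsy group of LTR retrotransposons, which copy themselves through an RNA intermediate. In fly gonads such elements are held down by PIWI-interacting RNAs (piRNAs). These are short RNAs, of which those antisense to an element guide PIWI proteins to its transcripts. The elements 297 and 17.6 are close relatives that carry an envelope-like reading frame, Burdock is a germline-expressed element that has been used as a reporter of piRNA silencing, and an accord LTR upstream of Cyp6g1 is the classic insertion linked to insecticide resistance. Reads of all lengths are summed in the tables, so piRNAs, siRNAs and breakdown products of these elements are not separated here. How reads matching several related entries, such as 297 and 17.6, were divided is not given in the sources used here, and the split between them is uncertain.

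Libraries held 897596 to 2663239 reads outside the spike-ins in ovary and 589490 to 1310076 in testis. The members took 22488 to 107721 reads in ovary and 5524 to 27045 in testis, which was 8.91% to 9.73% of all transposon (TE) values in ovary and 7.37% to 8.61% in testis. Values are reads scaled by 1 factor per library, as deposited. The number 1 and number 2 libraries hold different spike-in mixes, with Spike_1 at 29.8% to 51.4% of spike-in values in number 1 and 0.0374% to 0.633% in number 2 ovary libraries, so the changes of the element totals are also given within each number. Small RNAs of the Y-linked repeat Suste, used as a check of the added Y, read 4291 and 5726 on the Minus strand in XXYohio and 6842 and 10817 in XXYcongo, against 440.0 and 381 in XX ovary. In testis the same strand read 55125 and 44419 in XYYohio, 48803 and 86915 in XYYcongo and 43605 and 79771 in XY. These groups overlapped, so the check does not show the further Y in testis. None of the 12 ovary and testis marker genes looked for is listed in the tables, so the tissue is taken from the labels.

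The first question was how the added Ycongo chromosome changed these small RNAs in the ovary. All 7 elements had higher totals in XXYcongo than in XX ovaries, by 3.86-fold for 17.6, 3.73-fold for accord, 2.81-fold for rover, 2.79-fold for Burdock, 2.34-fold for nomad, 2.13-fold for accord2 and 1.61-fold for 297. Of the 24 entries, 20 rose and none fell at an adjusted p under 0.05 (limma on log2(value + 1), n = 2 per group, Benjamini-Hochberg over all 791 features tested). In the same comparison 45.5% of all features rose and 4.3% fell, and the median log2 fold change was 1.38 over the members, 1.13 over the 339 TE entries tested and 0.74 over all features. Of all TE entries tested 242 rose and 4 fell, and of the 104 entries of other gypsy-group elements 79 rose and 2 fell, with a median of 1.22. TE small RNAs as a whole made up 43.8% ± 2.32 of values outside the spike-ins in XXYcongo, 26.1% ± 4.45 in XXYohio and 24.1% ± 2.38 in XX (SD, n = 2 each). In bulk tissue, more cells that make these RNAs and more RNA per cell cannot be told apart.

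**Figure D1:**
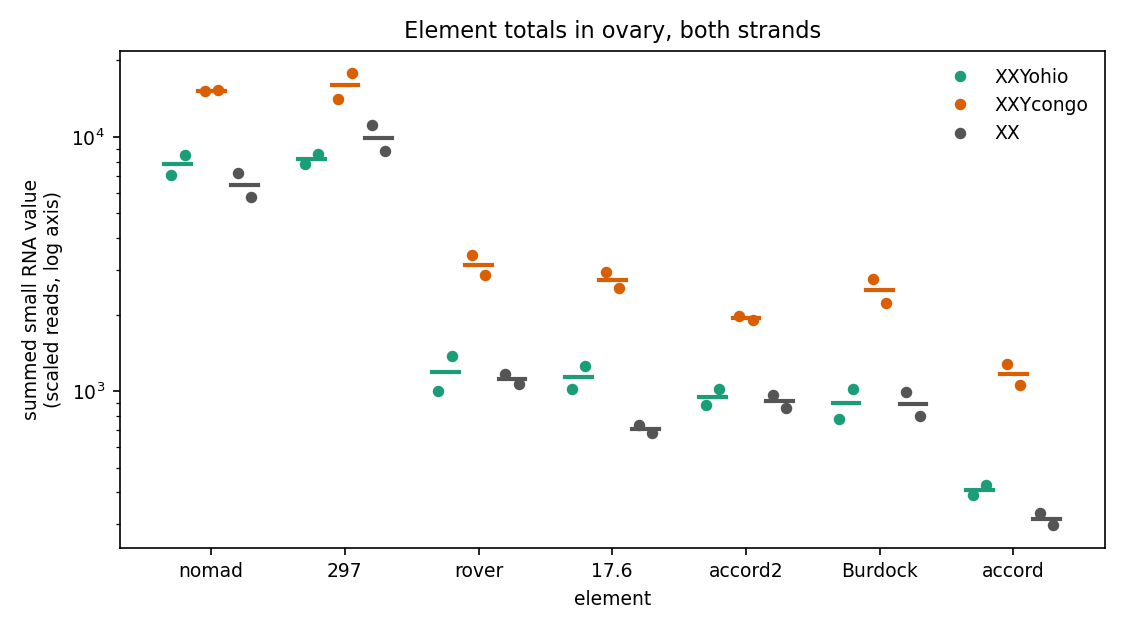
Summed values of each element in ovary, both strands and all entries together, on a log axis, for XXYohio, XXYcongo and XX. Points are the 2 libraries of a group and bars their mean. The XXYcongo points lie above the XX points for every element, by 3.86-fold on average for 17.6 and 1.61-fold for 297.

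The element 17.6 rose on both strands. DM176 Minus read 2412 and 2071 in XXYcongo, against 585 and 566 in XX, a log2 fold change of 1.96 ± 0.23 (SE, limma adjusted p = 1.87e-05). DM176 Plus read 519 and 483 in XXYcongo, against 153 and 118 in XX, a change of 1.89 ± 0.26 (limma adjusted p = 6.78e-05). On either strand both XXYcongo libraries stood far above both XX libraries, and the change of the Minus strand was 2.04 in number 1 and 1.87 in number 2.

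For accord all 4 entries rose, with changes from 1.57 to 2.04. ACCORD_I Minus read 741 and 629 in XXYcongo and 189 and 188 in XX (log2 fold change 1.85 ± 0.25, limma adjusted p = 6.47e-05). ACCORD_I Plus, with 225 and 181 in XXYcongo and 55.0 and 42.7 in XX, had the largest change of all members at 2.04 ± 0.32 (limma adjusted p = 0.000202). The LTR rose as well, at 232 and 188 on the Minus strand in XXYcongo against 63.0 and 43.4 in XX, and at 83.9 and 57.4 on the Plus strand against 23.0 and 22.4 (limma adjusted p = 0.000197 and 0.0024). None of these groups overlapped.

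Among the accord2 entries, which carry a related name and are a separate element in the tables, 4 of 4 rose, by 1.03 to 1.50. ACCORD2_I Minus read 1286 and 1283 in XXYcongo and 658 and 599.9 in XX (1.03 ± 0.22, limma adjusted p = 0.00188), although its sign turned to -0.06 when values were scaled to the TE total of each library. The share of accord2 in TE values was nearly level at 0.422% in both XXYcongo libraries, against 0.419% and 0.424% in XX. The accord2 total was 2.13-fold higher beside a TE share that differed by less than the spread between the XX libraries.

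Rover rose on both strands. ROVER_DM Minus read 2570.4 and 2121 in XXYcongo and 748 and 747 in XX (1.64 ± 0.24, limma adjusted p = 0.000121). ROVER_DM Plus read 854 and 748 in XXYcongo and 421 and 324 in XX (1.11 ± 0.25, limma adjusted p = 0.00265). The 2 XXYcongo libraries were above both XX libraries on each strand.

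Burdock rose in its internal part on both strands. BURDOCK_I Plus read 1657 and 1313 in XXYcongo against 607 and 445 in XX (1.50 ± 0.27, limma adjusted p = 0.000479), and BURDOCK_I Minus read 919 and 719 against 261 and 259 (1.64 ± 0.25, limma adjusted p = 0.000147). Of its LTR entries 1 of 2 passed. BURDOCK_LTR Plus rose to 118 and 120.0 in XXYcongo, against 66.0 and 35.7 in XX (1.27 ± 0.36, limma adjusted p = 0.011), while BURDOCK_LTR Minus read 66.9 and 64.9 in XXYcongo against 55.0 and 55.2 in XX (0.25 ± 0.30, limma adjusted p = 0.533). The LTR made up 6.8% and 8.3% of Burdock Minus values in XXYcongo, against 17.4% and 17.6% in XX, and 14.9% and 11.2% in XXYohio. The Plus to Minus ratio of BURDOCK_LTR did not differ by its own test (1.02 ± 0.48 in log2, limma adjusted p = 0.331).

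Both nomad Minus entries rose. NOMAD_I Minus, the most abundant nomad entry, read 11266 and 11273 in XXYcongo and 4287 and 3626 in XX (1.52 ± 0.20, limma adjusted p = 5.74e-05). NOMAD_LTR Minus read 606 and 435 in XXYcongo and 254 and 196 in XX (1.20 ± 0.28, limma adjusted p = 0.00311). On the Plus strand NOMAD_I read 2741 and 3066 in XXYcongo and 2278 and 1667 in XX (0.57 ± 0.23, limma adjusted p = 0.0572), and NOMAD_LTR read 497 and 456 against 376 and 286 (0.54 ± 0.25, limma adjusted p = 0.0925). Neither Plus entry passed the test at the deposited scaling. Their signs turned to -0.11 and -0.14 with TMM scaling, while both passed as higher with snoRNA scaling. The strand ratio of NOMAD_LTR did not differ by its own test (-0.66 ± 0.26 in log2, limma adjusted p = 0.292), and that of NOMAD_I is given with the other strand ratios.

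The element 297 had the smallest change of the 7. DM297_I Minus, the highest of all entries in XX ovary, read 10749 and 13602 in XXYcongo and 8616 and 7154 in XX (0.62 ± 0.20, limma adjusted p = 0.0216), and its sign turned to -0.06 with TMM scaling and to -0.47 with TE total scaling. DM297_LTR Minus read 2589 and 3389 in XXYcongo and 2102 and 1365 in XX (0.81 ± 0.25, limma adjusted p = 0.0179), and its sign turned to -0.28 with TE total scaling. DM297_I Plus rose to 706 and 671 in XXYcongo against 292 and 198 in XX (1.51 ± 0.26, limma adjusted p = 0.000413). DM297_LTR Plus, at 116 and 122 in XXYcongo and 89.0 and 68.5 in XX, did not pass (0.60 ± 0.30, limma adjusted p = 0.119). By library number the 297 total was 1.28-fold higher in number 1 and 2.02-fold in number 2, the widest such gap of the 7 elements, whereas 17.6 was 3.97-fold and 3.73-fold higher.

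By part of the element, 13 of 14 internal or whole entries rose and 7 of 10 LTR entries, beside 74.4% and 62.9% of all TE entries of these kinds. By strand, 9 of 12 Plus and 11 of 12 Minus entries rose, beside 63.7% of Plus and 78.9% of Minus TE entries. All 24 changes were above 0 in each library number, and the XXYcongo libraries lay above the XX libraries without overlap for all 24, as they did for 59.5% of all features and 88.5% of TE entries. With TMM scaling 19 members were above 0 and 10 rose, where 25.5% of all features rose, and with TE total scaling 17 were above 0. By library number the totals were 3.88-fold and 3.56-fold higher for accord, 2.93-fold and 2.68-fold for rover, 2.79-fold and 2.79-fold for Burdock, 2.10-fold and 2.64-fold for nomad, and 2.04-fold and 2.23-fold for accord2. The median of all features moved from 0.74 at the deposited scaling to 0.09 with TMM scaling and to -0.30 with TE total scaling, while the median of the members moved from 1.38 to 0.71 and 0.31.

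**Figure D2:**
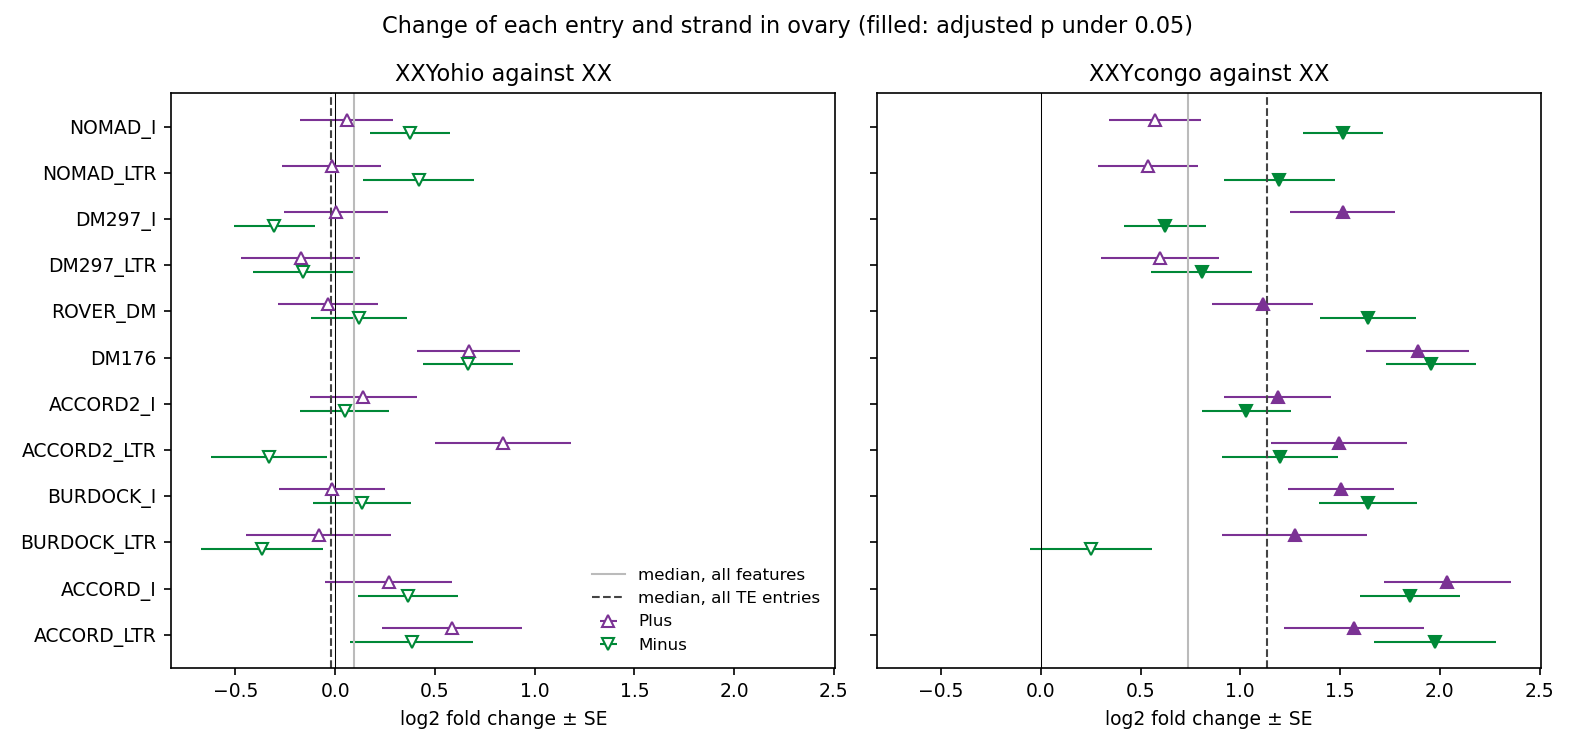
Log2 fold change with its standard error for each entry and strand in ovary, XXYohio against XX on the left and XXYcongo against XX on the right, with 2 libraries per group. Triangles up are Plus and triangles down Minus, filled where the adjusted p is under 0.05, and vertical lines mark the medians of all features and of all TE entries. In the right panel 20 of 24 symbols are filled and the 17.6 and accord entries lie to the right of the TE median of 1.13, while on the left none is filled.

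Since most TE entries rose, the members were also compared after scaling every library to its TE total, an alternative chosen after the data were seen. Of the 24 entries, 8 were then higher in XXYcongo than in XX and 3 lower, where 15.8% of all features were higher and 26.8% lower. The 8 were DM176 on both strands (0.87 ± 0.15 Minus, limma adjusted p = 0.00331, and 0.80 ± 0.18 Plus), ACCORD_I on both strands (0.76 ± 0.18 Minus and 0.96 ± 0.33 Plus), ACCORD_LTR Minus, ROVER_DM Minus, NOMAD_I Minus and BURDOCK_I Minus. The 3 lower were NOMAD_I Plus (-0.52 ± 0.15, limma adjusted p = 0.0284), NOMAD_LTR Plus (-0.55 ± 0.17) and DM297_I Minus (-0.47 ± 0.15, limma adjusted p = 0.0411). In shares, 17.6 took 0.627% and 0.566% of TE values in XXYcongo and 0.319% and 0.340% in XX, and accord 0.274% and 0.234% against 0.143% and 0.147%. The 297 share was 3.03% and 3.94% in XXYcongo and 4.80% and 4.36% in XX. The 2 groups of libraries do not overlap in any of these shares, which were described and not tested.

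The added Yohio chromosome gave a different picture in the ovary. None of the 24 entries passed the test against XX, where 3.29% of all features did, and edgeR's quasi-likelihood test on the recovered reads also called none. Limma gave 3 of the 24 entries an unadjusted p under 0.05, beside 109 of all 791 features. EdgeR also gave 3 entries one, and its number over all features is not given here. The changes ran from -0.37 to 0.84 with a median of 0.09, beside 0.10 over all features. The 2 comparisons share the XX libraries, so their values are set side by side and not correlated.

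The 17.6 entries had 2 of those unadjusted p values. DM176 Minus read 815 and 1023 in XXYohio against 585 and 566 in XX (0.66 ± 0.23, limma adjusted p = 0.19), and DM176 Plus read 203 and 226 against 153 and 118 (0.67 ± 0.26, limma adjusted p = 0.247). On both strands the 2 XXYohio libraries lay above the 2 XX libraries, in both library numbers, by 0.48 and 0.85 for the Minus strand. The 2 groups did not overlap, in either direction, for 11 of the 24 members, and the share over all features was not counted for this contrast. The share of 17.6 in TE values was 0.503% and 0.522% in XXYohio, against 0.319% and 0.340% in XX. The other entry, ACCORD2_LTR Plus, read 37.9 and 32.3 in XXYohio and 18 and 20.3 in XX (0.84 ± 0.34, limma adjusted p = 0.276), which are few reads. The 297 total was 0.824 times that of XX, with 7814 and 8571 in XXYohio and 11099 and 8785 in XX, and none of its entries passed the test.

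XXYcongo was also compared with XXYohio directly, a contrast that the series design does not list. Again 20 of 24 entries were higher and none lower, where 44.9% of all features were higher and 4.17% lower, with a median of 1.15 over the members and 0.83 over all features. DM176 Minus was higher in XXYcongo by 1.29 ± 0.23 (limma adjusted p = 0.000576) and BURDOCK_I Plus by 1.52 ± 0.27 (limma adjusted p = 0.000566). NOMAD_I Plus (0.51 ± 0.23, limma adjusted p = 0.0825), NOMAD_LTR Plus, BURDOCK_LTR Minus and ACCORD2_LTR Plus did not pass. With spike-in scaling none of the 24 passed in this contrast, and the share over all features at that scaling is not given here. With TE total scaling 1 passed, NOMAD_I Plus, at -0.55 ± 0.15 (limma adjusted p = 0.0237), where 26.3% of all features were lower.

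Strand tells whether small RNAs read like the listed entry (Plus) or opposite to it (Minus), which is antisense to the element if its entry is written in coding orientation. Most of the elements were Minus-rich in ovary. The Plus strand made up 2.69% to 6.16% of DM297_I values over the 6 ovary libraries, 17.3% to 20.7% of DM176 and 24.9% to 36.0% of ROVER_DM. Burdock differed, with 62.0% to 69.9% Plus in BURDOCK_I, above the Minus strand in 6 of 6 libraries. Nomad differed between its parts, with 19.6% to 34.7% Plus in NOMAD_I and 45.1% to 59.7% in NOMAD_LTR.

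The Plus to Minus ratio was tested for each entry listed on both strands, 209 in ovary, of which 12 are members. Against XX, 1 member ratio differed in XXYcongo, where 3.35% of all entries tested did. It was NOMAD_I, with 19.6% and 21.4% Plus in XXYcongo, against 34.7% and 31.5% in XX, a difference of -0.94 ± 0.14 in the log2 ratio (limma adjusted p = 0.0368). XXYohio lay between the 2, at 27.9% and 29.0%. The difference was -0.84 to -1.05 without any single library. The call held without XX replicate 2 (limma adjusted p = 0.0195) and was lost without any other library, at 0.0777 to 0.133, and with a replicate block, at -0.94 and 0.0791. The ratio of DM297_I moved the other way, with 6.16% and 4.70% Plus in XXYcongo and 3.28% and 2.69% in XX (0.89 ± 0.19), and did not pass (limma adjusted p = 0.0787). For XXYohio against XX no member ratio passed, where 1.44% of all entries did. There 1 member and 33 of all 209 entries had an unadjusted limma p under 0.05. Nor did any member ratio pass for XXYcongo against XXYohio, where 0.957% did. In that contrast 2 members and 43 of all 209 entries had such an unadjusted p.

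**Figure D3:**
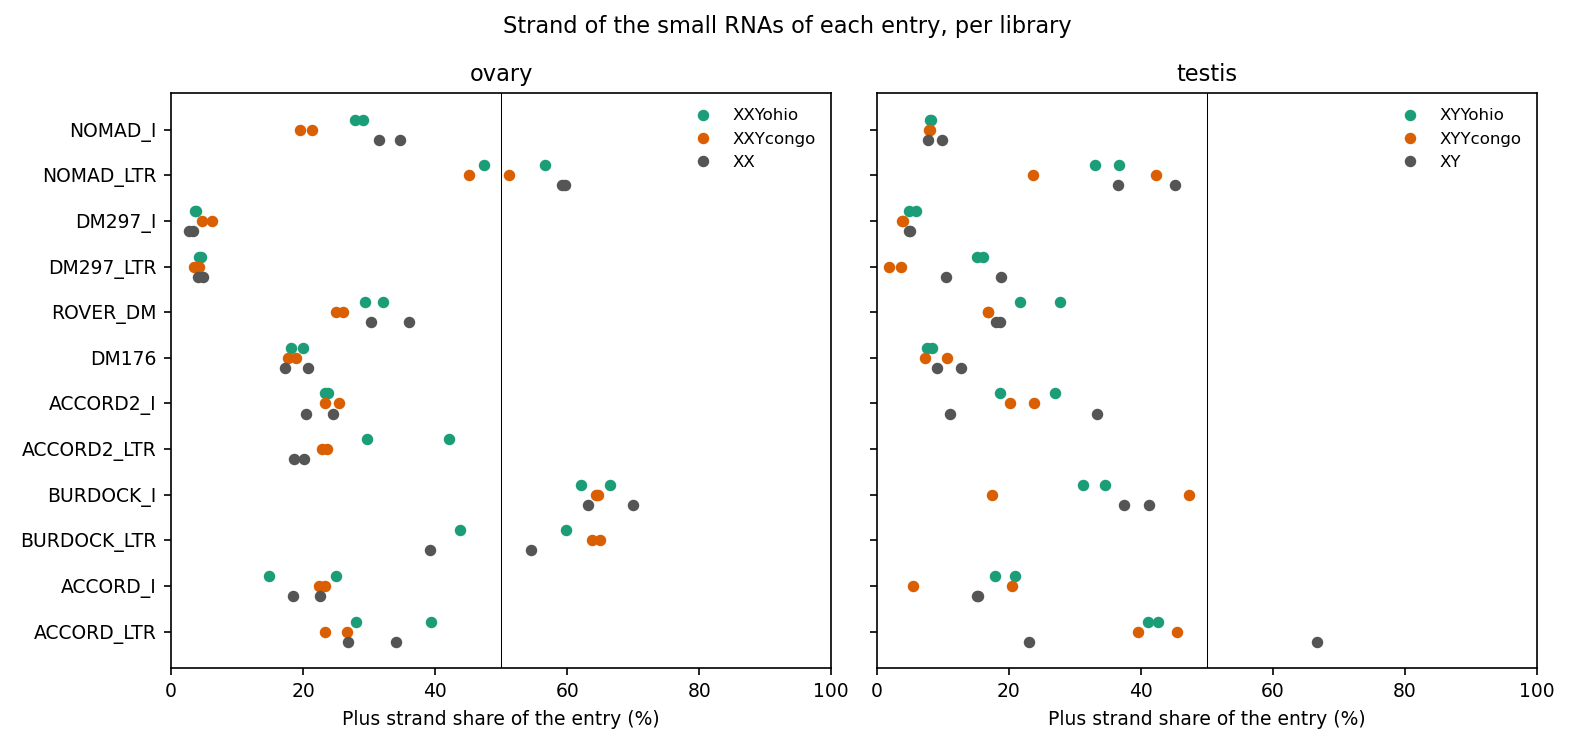
Plus strand share of each member entry in percent, ovary on the left and testis on the right, with 1 point per library and the line at 50. NOMAD_I in ovary shows the XXYcongo points at 19.6% and 21.4%, left of the XX points at 34.7% and 31.5%, and BURDOCK_I lies right of the line in ovary and left of it in testis.

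The testis held a different mix of these elements. The tables were normalized separately, so only shares of TE values within each library are set side by side, with no test. Nomad took a median of 7.10% of TE values over the 6 testis libraries and 3.30% over the 6 ovary libraries, while 297 took 0.526% in testis and 3.90% in ovary. For 17.6 the 2 tissues were close, at 0.50% in testis and 0.513% in ovary. Burdock was lowest in testis at 0.0153%, against 0.426% in ovary, and accord2 took 0.0737% against 0.423%, accord 0.0864% against 0.186%, and rover 0.127% against 0.553%. For 297, Burdock, accord2, accord and rover every testis library was below every ovary library, and for nomad every testis library was above. Entry lengths are not in the tables, so these shares compare an element between tissues and not elements with each other.

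**Figure D4:**
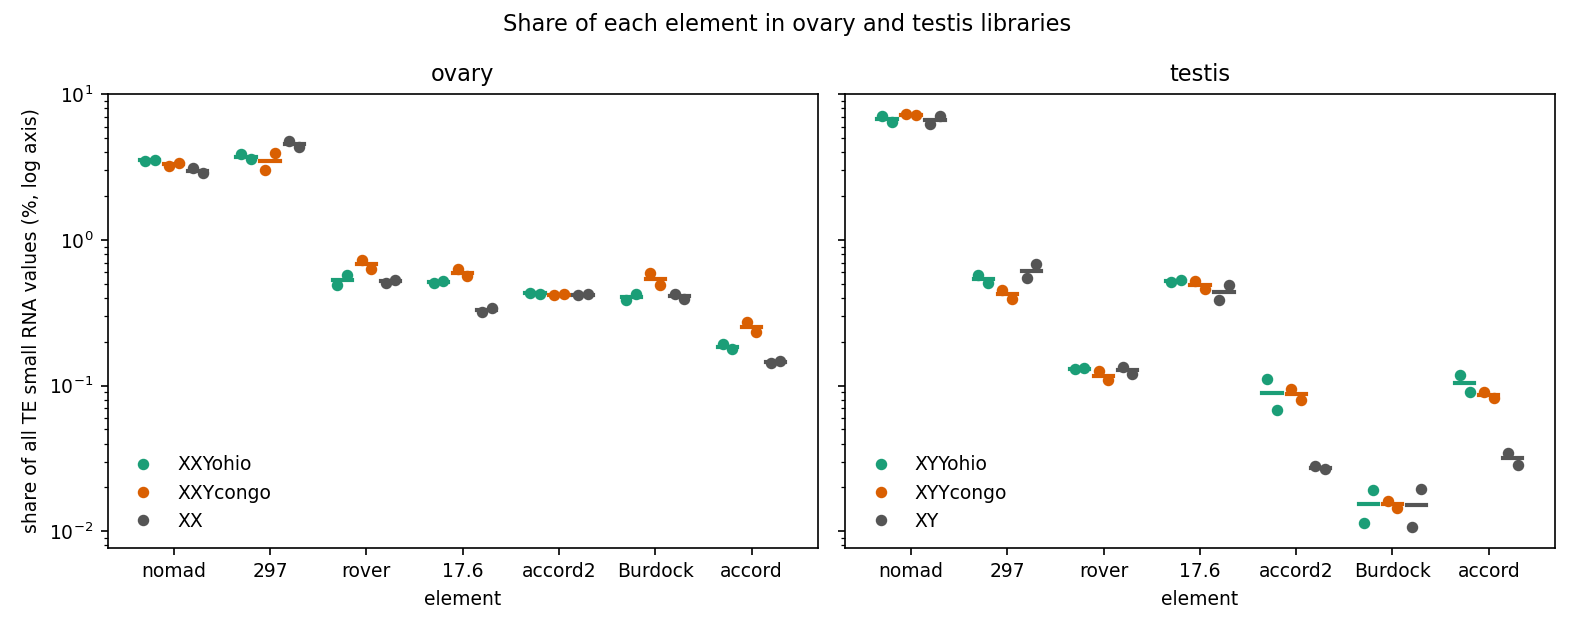
Share of each element in all TE small RNA values in percent, on a log axis, for ovary and testis libraries. Points are the 2 libraries of a group and bars their mean. The nomad share is higher in testis, Burdock falls to a median of 0.0153% there, and accord and accord2 in testis show the 2 added-Y groups above XY.

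With the second Y chromosome of Yohio origin, none of the 20 member entries tested in testis passed against XY, where 0.647% of all 618 features did. Limma gave 5 entries an unadjusted p under 0.05, beside 30 of all 618 features. EdgeR gave 4 entries one, its number over all features is not given here, and neither method called a member. ACCORD2_LTR Minus, with 2 to 5 reads per library, was not tested. The most abundant entry, NOMAD_I Minus, read 6869 and 3931 in XYYohio against 3748 and 7842 in XY, so the groups overlapped. DM176 Minus read 539 and 353 in XYYohio and 253 and 572 in XY, and DM297_I Minus read 502 and 297 against 326 and 664, which overlapped as well. The standard error of a testis change was 0.64 to 0.75 on the log2 scale, against 0.20 to 0.36 in ovary, so the testis libraries resolve smaller changes less well.

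All 5 of those entries belonged to accord and accord2. ACCORD_I Minus read 68.2 and 36.8 in XYYohio and 11.0 and 20.2 in XY (1.68 ± 0.65, limma adjusted p = 0.634). ACCORD2_I Minus read 100.3 and 34.7 in XYYohio and 16.0 and 21.8 in XY (1.61 ± 0.66, limma adjusted p = 0.723). For both entries the XYYohio libraries lay above the XY libraries. The 2 groups did not overlap for 5 of the 20 members tested, and the share over all features was not counted for this contrast. In shares of TE values accord took 0.119% and 0.0907% in XYYohio and 0.0347% and 0.0287% in XY, which is 3.43-fold and 3.16-fold in library numbers 1 and 2, while the accord totals were 5.25-fold and 1.77-fold higher. These are 26 to 166 reads of accord per library, and the difference is not established by the test.

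In XYYcongo testis the changes of the accord and accord2 entries against XY were 1.12 to 1.95, and none passed the test. ACCORD2_I Minus read 71.1 and 79.1 in XYYcongo, against 16.0 and 21.8 in XY (1.95 ± 0.66, limma adjusted p = 0.0898), and ACCORD2_I Plus read 18 and 24.7 against 2.00 and 10.9 (1.89 ± 0.69, limma adjusted p = 0.131). Without XY replicate 2 the change of ACCORD2_I Plus was 2.88, which rests on XY replicate 1 as the only control library, at a value of 2.00. ACCORD_I Minus read 56.4 and 56.2 in XYYcongo and 11.0 and 20.2 in XY (1.85 ± 0.65, limma adjusted p = 0.129). The share of accord2 in TE values was 0.0944% and 0.0796% in XYYcongo and 0.0280% and 0.0268% in XY, that is 3.37-fold and 2.97-fold by library number, and its totals were 4.32-fold and 3.09-fold higher. The 2 comparisons share the XY libraries, in which accord2 had 21 and 86 reads.

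Of the 20 entries, 1 passed in XYYcongo against XY, where 1.62% of all features did and 0.485% were lower. DM297_LTR Plus had 2 and 1 reads in XYYcongo, against 7 and 86 reads in XY, or 1.63 and 0.851 against 7 and 34.7 in deposited values (-2.94 ± 0.72, limma adjusted p = 0.00384). The ratio of summed reads, 3 in XYYcongo against 93 in XY, was 0.0468 after correction for the scale factors of the libraries. Its exact 95% interval was 0.00948 to 0.141, which covers counting error only. Pooled in this way, the XY side rests mostly on XY replicate 2. The XY libraries were far apart from each other, and the change was -1.60 in number 1 and -4.27 in number 2. The call was lost without XY replicate 2 (-1.86, limma adjusted p = 0.387), without XYYcongo replicate 2 (-2.68, limma adjusted p = 0.0987), and with TMM scaling (limma adjusted p = 0.167). DM297_LTR Minus read 43.3 and 43.4 in XYYcongo and 60 and 149.6 in XY (-1.11 ± 0.66, limma adjusted p = 0.72), while DM297_I Minus read 374 and 469.8 against 326 and 664.

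**Figure D5:**
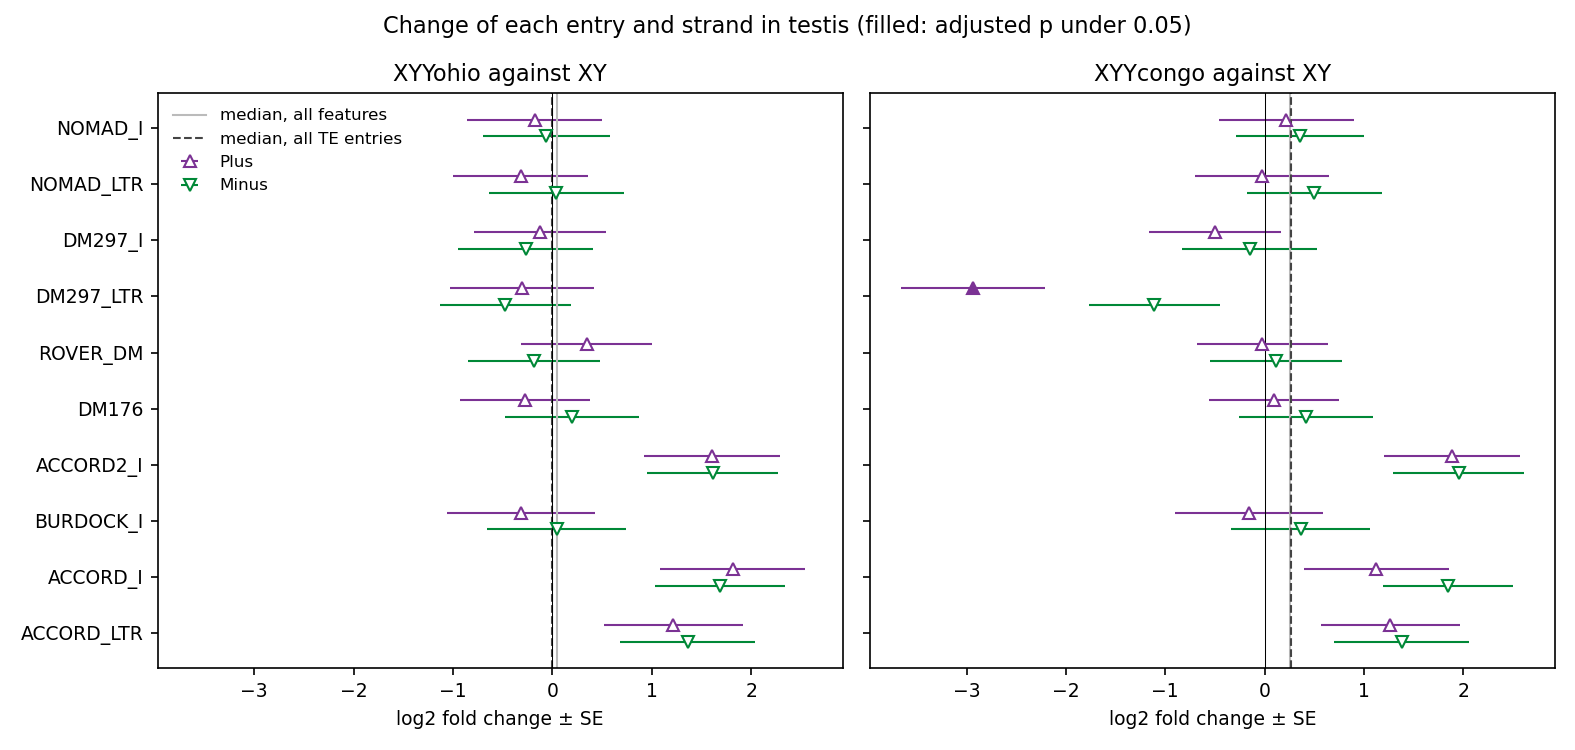
Log2 fold change with its standard error for each tested entry and strand in testis, XYYohio against XY on the left and XYYcongo against XY on the right, with 2 libraries per group. Triangles up are Plus and triangles down Minus, filled where the adjusted p is under 0.05. The single filled symbol is DM297_LTR Plus at -2.94, and the accord and accord2 entries lie between 1.12 and 1.95 over both panels without passing the test.

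Between the 2 added-Y groups, XYYcongo against XYYohio, no member level passed, as for all 618 features. An unadjusted p under 0.05 was found for 1 member by limma and by edgeR, beside 8 of all 618 features by limma. The edgeR number over all features is not given here. Of the member strand ratios, 10 of 152 tested, 1 differed here, where 9.87% of all entries did. DM297_LTR had 3.64% and 1.92% Plus in XYYcongo, against 16.1% and 15.2% in XYYohio and 10.4% and 18.8% in XY, and the log2 ratio differed from that in XYYohio by -1.99 ± 0.39 (limma adjusted p = 0.0176). The call was lost at a difference of -1.98 without XYYohio replicate 1 (adjusted p = 0.0786), -2.005 without XYYohio replicate 2 (adjusted p = 0.0884) and -1.74 without XYYcongo replicate 2 (adjusted p = 0.0987). No member ratio passed in XYYohio against XY, where 13.8% of all entries did. There no member had an unadjusted limma p under 0.05, beside 32 of all 152 entries. Nor did any member ratio pass in XYYcongo against XY, where 0% did. In that contrast 1 member and 18 of all 152 entries had such an unadjusted p. BURDOCK_I, which was Plus-rich in ovary, had 17.4% to 47.4% Plus in testis at 8 to 63 reads per library.

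The authors' deposited table for ovary gives a p-value under 0.05 for 19 of 24 members (79.2%) and for 355 of all 968 entries (36.7%), from an analysis of variance over the 3 genotypes. The authors' deposited table for testis gives none of 21 members such a p-value and 23 of all 845 entries (2.72%).

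For orientation, insertions were counted by FlyBase name in the BDGP6.54 annotation, which is used for counts only because the build of the files is not given in the sources used here. It lists 89 insertions of 297, 29 of 17.6, 24 of Burdock, 13 of rover, 7 of accord2 and 3 of accord, and the name nomad was not matched. Of these, 1 insertion of 17.6 and 1 of rover lie on the reference Y chromosome, which holds 80 of 5874 annotated transposon insertions. The Yohio and Ycongo chromosomes are other Y chromosomes, and their insertions are not analysed here.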

How the data were processed

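Total RNA of ovaries and testes was extracted with Trizol, made into small RNA libraries with a PrepX kit on an Apollo 324 instrument (15 PCR cycles), pooled and sequenced for 50 cycles from single ends, per the labels' protocols. The submitters' processing notes name Trim Galore and Bowtie 1.1.1. The origin of the scaling, the handling of reads with several matches, the annotation and the build are each not given in the sources used here. The authors deposited 1 table per tissue. In replicate 1 of XX and of XY the deposited values are whole read counts. Every other library has a normalized signal, deposited as whole reads times a single factor: dividing by it gave whole reads for 100% of values, to within 0.01. A deposited p-value per entry comes from the authors' analysis of variance. All sample columns were used.

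Genotypes were compared within each table with limma 3.58.1 in R 4.3.3 (eBayes with trend, two-sided) on log2(value + 1), with all 6 libraries of a tissue in 1 model. Spike-ins and entries with a mean under 5 were left out, which left 791 entries in ovary and 618 in testis, and p-values were adjusted by Benjamini-Hochberg over them and called under 0.05. Fold changes on this scale understate the changes of low entries, and ± after one is its standard error. Its prior degrees of freedom came to 9.59 for ovary and were infinite for testis, where the error came from the trend alone. Strand ratios were tested in the same way on log2((Plus + 1)/(Minus + 1)) for entries with a summed mean of at least 10. The alternatives were other scalings, pseudocounts and filters, no trend, a replicate block, leaving out each library, and edgeR 4.0.16 on the recovered reads. Intervals on reads cover counting error only, since PCR copies are not marked.

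All members are reported. For most called members, and for the most abundant ovary entry of each element, values are given in each library of the 2 groups compared. Values of XXYohio and of the testis libraries are given for some entries only. The members and lists were chosen with earlier results of these data known. No element sequence is printed, as the reference used holds none.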

Additional observations from a re-analysis of the deposited data

Results flagged for a closer look

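Entries were flagged by a rule: changes of opposite sign in the 2 tissues under the same added Y, with no overlap between the libraries of a comparison. At the deposited scaling this rule picked both strands of the 297 LTR entry, under Ycongo. In ovary 59.5% of all features and 88.5% of TE entries were higher in XXYcongo than in XX without overlap. The share of all features that meets the rule in both tissues was not counted. DM297_LTR Minus changed by 0.81 on the log2 scale in XXYcongo against XX ovary and by -1.11 in XYYcongo against XY testis. DM297_LTR Plus changed by 0.60 in ovary and by -2.94 in testis. The ovary value of the Plus strand and the testis value of the Minus strand did not pass the test, the testis value of the Plus strand rests on 2 and 1 reads in XYYcongo and 7 and 86 in XY, and both ovary values turned with TE total scaling, to -0.28 for Minus and -0.48 for Plus. With TE total scaling the testis values were -1.31 for Minus and -3.02 for Plus, so neither strand differed in sign between the tissues. The Plus value in ovary also turned to -0.08 with TMM scaling. The difference between the tissues was not tested, because the tables were normalized separately. Groups of 2 libraries were too small to look for a library far from the others.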

How the results depend on the processing

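Of 162 counts of called members over 12 comparisons and their alternatives, 141 stayed within 1.5 times the reported count, and of 2286 values of single entries 2016 kept their sign and side of the threshold, 117 kept their sign and crossed the threshold, 140 turned sign without being called in either fit and 13 turned sign in a called entry. Over all features, edgeR on the recovered reads called 384 in XXYcongo against XX, 395 in XXYcongo against XXYohio, 22 in XXYohio against XX, 6 in XYYcongo against XY, 3 in XYYohio against XY and 0 in XYYcongo against XYYohio. In XXYcongo against XX, 20 entries were called with edgeR and with a replicate block, 18 with scaling to all reads outside the spike-ins, 16 with spike-in scaling and 23 with snoRNA scaling, but 10 with TMM and 11 with TE total scaling. Of all features 25.5% rose with TMM scaling, and 15.8% rose and 26.8% fell with TE total scaling. For the other scalings, the replicate block and the fits without 1 library, the share over all features in this contrast is not given here. Those counts therefore show how the calls depend on the setting and do not set the members apart from other features. In XXYcongo against XXYohio the count of 20 became 11 with TMM, 0 with spike-in and 1 with TE total scaling. For TMM and spike-in scaling the share over all features in that contrast is not given here either. In XYYcongo against XY the single call became 0 with TMM, snoRNA, spike-in and TE total scaling. The NOMAD_I strand ratio in XXYcongo against XX was joined by DM297_I at a pseudocount of 5, making 2, and the count was 0 with a replicate block. The strand ratio called in XYYcongo against XYYohio became 0 at a pseudocount of 5. Fits without 1 library leave a single library in 1 group, and equal counts from them need not be of the same entry. In XYYcongo against XY, for instance, the DM297_LTR Plus call was lost without XY replicate 2. Leaving out 1 library gave 17 to 21 entries in XXYcongo against XX, 16 to 20 in XXYcongo against XXYohio, 0 to 1 in XYYcongo against XY, and 0 to 1 for each of the called strand ratios, and 0 in the other comparisons.

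With TE total scaling, chosen after seeing the data, the sign in XXYcongo against XX turned to -0.82 for BURDOCK_LTR Minus, -0.55 for NOMAD_LTR Plus, -0.52 for NOMAD_I Plus, -0.48 for DM297_LTR Plus, -0.47 for DM297_I Minus, -0.28 for DM297_LTR Minus and -0.059 for ACCORD2_I Minus. TMM scaling turned BURDOCK_LTR Minus to -0.42, NOMAD_LTR Plus to -0.14, NOMAD_I Plus to -0.11, DM297_LTR Plus to -0.078 and DM297_I Minus to -0.059. In XXYcongo against XXYohio, TE total scaling turned 11 of 24 entries: NOMAD_I Plus to -0.55, NOMAD_LTR Plus to -0.51, BURDOCK_LTR Minus to -0.42, ACCORD2_LTR Plus to -0.38, DM297_LTR Plus to -0.28, ACCORD2_I Plus to -0.012, ACCORD_LTR Plus to -0.055, DM297_LTR Minus to -0.10, DM297_I Minus to -0.13, ACCORD2_I Minus to -0.078 and NOMAD_LTR Minus to -0.28. The cause of these changes was not tested. The median of all features in XXYcongo against XX was 0.74 as deposited, 0.09 with TMM, 1.03 with snoRNA, 1.60 with spike-in, 0.52 with non-spike and -0.30 with TE total scaling.

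Same-numbered libraries correlated in their deviations from the group means at 0.016 to 0.25 in ovary and 0.35 to 0.41 in testis. The numbers also follow the spike-in mix, so they may mark a shared batch, more clearly in testis. A replicate block changed no count of called member levels, while over all features in XXYohio against XX it gave 42 calls in place of 26. With 2 libraries per group, wide errors in testis, and few reads there for Burdock, accord and accord2, small changes were not detectable. The errors were not wide for low entries only. With TE total scaling the standard error of the abundant NOMAD_I Minus in XYYohio against XY was 0.22, below the errors at the deposited scaling. The TE values of the XY libraries were 74937 and 129319. The source of the wide errors was not tested.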

Other observations

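For the most abundant ovary entry of each element, the entries of other elements with the most similar pattern over the 6 ovary libraries were found by Pearson's r of log2(value + 1) after the TE median of each library was subtracted. The libraries share depth and scale factors, so r is a description. DM176 Minus was most like GTWIN_I Minus (r = 0.988), from gtwin, another gypsy-group element, and ACCORD_I Minus was most like IDEFIX_I Minus (r = 0.988), from the follicle-cell element idefix. ROVER_DM Minus was most like TABOR_I Minus (r = 0.955) and then ZAM_I Minus (r = 0.945). DM297_I Minus was most like ROO_I Minus (r = 0.969), from roo, an abundant LTR element of the BEL group. BURDOCK_I Plus was most like HOBO Plus (r = 0.957), from a DNA transposon. NOMAD_I Minus was about equally like POGO Minus (r = 0.9931), from a DNA transposon, and QUASIMODO_I Plus (r = 0.9927), from a gypsy-group element. ACCORD2_I Minus was most like Bica_LTR Plus (r = 0.976).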
